A study of Mus musculus with 4 samples.

Results

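Genes whose descriptions mark them as RNA-binding, splicing, ribonucleoprotein, DEAD-box, DEAH-box or RNA polymerase factors were named for 34 of the 1849 intervals of a CHD4 peak list from mouse spermatogonial cells. These intervals named 26 of the 1517 genes in the list and held 40 of its 2066 summits, since rows sharing chromosome, start and end were collapsed into 1 interval. Members were found by 7 keywords in the deposited gene description (splic, RNA binding, RNA-binding, ribonucleoprotein, DEAD, DEAH and RNA polymerase, in any case of letters), with Nanos3 left out. The keywords refer to no measured value. CHD4 was profiled by CUT&Tag, in which a transposase tethered to an antibody inserts sequencing adapters next to the protein it recognises. The CHD4 antibody was used on 2 samples and non-specific IgG on another 2, all from wild-type C57BL/6 mice; the labels give no age. The cells are labelled spermatogonial and the protocol starts from digested testes; the labels give no step that enriches spermatogonia. A peak list holds no expression values, so the cell label could not be checked against marker genes.

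CHD4 is a chromatin remodelling ATPase and a core member of NuRD, a complex that moves nucleosomes and removes histone acetylation at promoters and enhancers. The genes described here act on RNA. Splicing factors remove introns from transcripts, heterogeneous nuclear ribonucleoproteins (hnRNPs) coat nascent transcripts and steer splice site choice, and DEAD-box and DEAH-box helicases unwind RNA and remodel RNA-protein complexes. Male germ cells are known for extensive alternative splicing and for control of stored transcripts by RNA-binding proteins.

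At 6 members the interval contained the transcript start to which the peak had been assigned. The bases before the RefSeq start show what sequence lay at or near such sites. RefSeq promoter sequences (GRCm38.p6, the assembly whose coordinates are those of mm10) were matched for 14 of the 16 genes with a promoter interval, and for 12 of them the RefSeq start lay within 1 kb of the start the authors used. Rbm12b2 and Hnrnpul2 had no matched sequence. The 250 bases before the RefSeq start follow for 5 genes whose interval contained the authors' start. They are in order of fold, 5′ to 3′ on the gene's strand. Capitals mark 3 motifs on either strand. The GC box was searched as GGGCGG. The CCAAT box was searched by the letters of its name. The ETS core was searched as CCGGAA.
Paf1 (chr7:28392746-28392995, plus strand): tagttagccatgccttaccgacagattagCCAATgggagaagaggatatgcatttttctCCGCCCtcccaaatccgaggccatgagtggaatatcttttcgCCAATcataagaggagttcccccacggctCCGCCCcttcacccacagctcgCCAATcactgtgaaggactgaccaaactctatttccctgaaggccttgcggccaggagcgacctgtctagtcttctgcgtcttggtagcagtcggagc
Larp7 (chr3:127553350-127553599, minus strand): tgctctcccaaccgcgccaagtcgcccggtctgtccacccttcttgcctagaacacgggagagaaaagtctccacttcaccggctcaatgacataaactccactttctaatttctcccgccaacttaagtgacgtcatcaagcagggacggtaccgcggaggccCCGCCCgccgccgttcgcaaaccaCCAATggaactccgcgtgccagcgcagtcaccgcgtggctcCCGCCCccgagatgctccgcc
Snrpd2 (chr7:19149588-19149837, plus strand): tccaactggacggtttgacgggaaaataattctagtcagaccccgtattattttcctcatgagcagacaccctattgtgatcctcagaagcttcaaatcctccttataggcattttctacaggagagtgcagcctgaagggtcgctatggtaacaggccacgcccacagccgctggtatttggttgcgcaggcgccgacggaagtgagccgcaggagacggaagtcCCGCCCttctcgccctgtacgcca
Srsf1 (chr11:88047123-88047372, plus strand): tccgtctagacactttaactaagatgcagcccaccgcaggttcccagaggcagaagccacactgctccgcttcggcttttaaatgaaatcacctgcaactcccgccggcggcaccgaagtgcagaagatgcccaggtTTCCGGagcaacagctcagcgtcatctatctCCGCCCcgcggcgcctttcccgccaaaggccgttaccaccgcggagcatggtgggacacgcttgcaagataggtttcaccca
Cactin (chr10:81320853-81321102, plus strand): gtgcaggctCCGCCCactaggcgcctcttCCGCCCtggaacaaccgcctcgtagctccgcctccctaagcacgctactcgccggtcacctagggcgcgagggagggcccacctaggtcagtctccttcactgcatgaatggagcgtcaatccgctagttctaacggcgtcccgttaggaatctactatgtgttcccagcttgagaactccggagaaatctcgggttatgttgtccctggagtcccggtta
The intervals covered all 250 of these bases at Paf1 and at Cactin, 209 at Snrpd2 and 37 at Srsf1. The Larp7 interval covered 0 of them: it lay 36 bp inside the gene from the RefSeq start and contained the start of another Larp7 transcript. The Snrpd2 interval ended 42 bp before the RefSeq start, and the authors' start it contained lay 116 bp from the RefSeq one. The marked motifs of Larp7, Snrpd2 and Srsf1 lay outside their intervals. Paf1 carried 3 CCAAT boxes and 2 GC boxes in its window, and Snrpd2 carried 1 GC box and no CCAAT box. No marked motif overlapped another.

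Over the 12 matched windows, GC boxes were common. Each member gene gave 1 window, at the RefSeq start nearest the authors' start and within 1 kb of it. The windows compared below were not chosen in this way. Dhx32 and Hnrnpl were left out by that limit. The Dhx32 window had no GC box, no CCAAT box and 3 CpG, and that of Hnrnpl had 1 GC box, 4 CCAAT boxes and 14 CpG. A GC box was present in 11 of the 12 member windows, against 42.6% of the 21262 windows of protein-coding genes and 61.1% of the 628 windows belonging to protein-coding genes with a CHD4 promoter interval (a gene can have several). A CCAAT box was present in 9 of the 12, against 35.4% and 35.7% of those windows. An ETS core was present in 3, at Ttf1, Srsf1 and Ddx42, against 15% and 22.0%. Neither the TATA box (TATAAA) nor the E-box (CACGTG) was found in any of the 12. TATAAA was in 11.6% of all windows and 6.21% of those of genes with a promoter interval, and CACGTG in 6.63% and 9.24%. The median count of CpG was 19 in the member windows (range 11 to 24), 16 in the windows of genes with a promoter interval and 10 in all windows. Much of this sequence lay outside the intervals, which covered no base of the Larp7, Ttf1 and Cirbp windows and 15, 24 and 37 bases at Hnrnpul1, Khsrp and Srsf1. These are matches of letters in a fixed window and do not show binding of a factor.

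The intervals of RNA genes lay at promoters in 17 of 34 cases, or 50% (exact 95% interval 32.4 to 67.6), against a background of 34.1% over all intervals. Here a promoter is sequence within 1 kb of a transcript start in the authors' annotation. The transcript start was inside the interval in 6 cases, or 17.6% (6.76 to 34.5), against 15.7% over all intervals. The other 11 promoter intervals, 32.4% of the members (17.4 to 50.5), lay beside the start, against 18.4% of all intervals. Sequence 1 to 3 kb from a start held 3 members, 8.82%, against 8.06% of all intervals. Introns held 5 members, 14.7% (4.95 to 31.1), against 26.7% of all intervals, and distal intergenic sequence held 9, 26.5% (12.9 to 44.4), against 24.7%. No member lay in the exon, UTR or downstream classes (0 of 34; exact interval up to 10.3%), which held 6.44% of all intervals. The exact intervals for members are wide, and those of the promoter and intron shares include the value over all intervals. Among the 14 members with a fold at or above the median of the list the promoter share was the lower one. It was 14.3% (1.78 to 42.8), against 23.3% of all intervals of that strength, a value inside the exact interval.

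**Figure D1:**
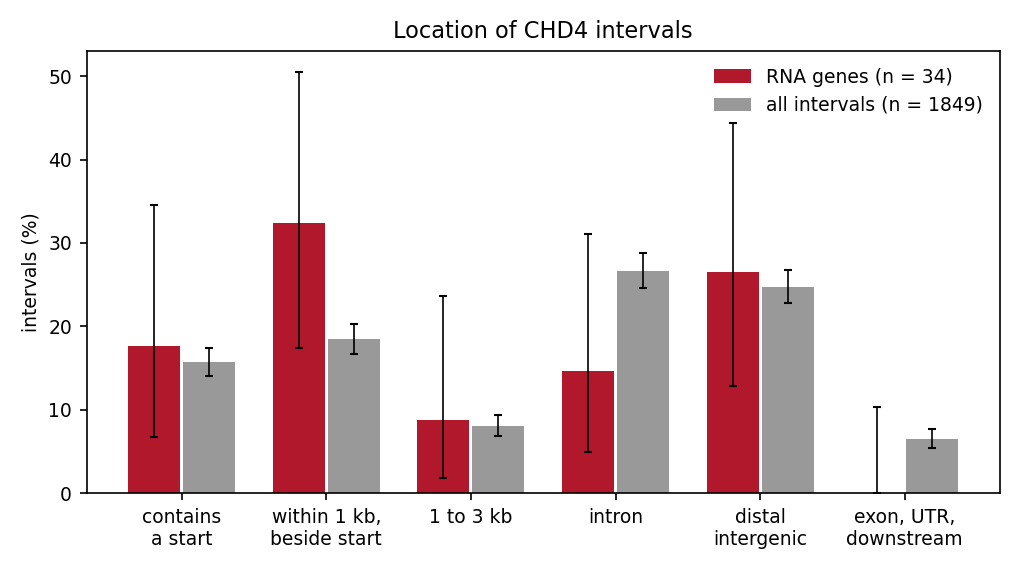
Share of intervals (y axis, %) in each location class (x axis) for the 34 intervals of RNA genes and for all 1849 intervals, members included; error bars are exact 95% binomial intervals. Promoter intervals beside the start made up 32.4% of the members and 18.4% of all intervals.

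Counted by gene, 16 of the 26 RNA genes had at least 1 promoter interval, 61.5% (40.6 to 79.8), against 40.6% of all genes named in the list. The median distance from interval to assigned start was 1.22 kb, with quartiles of 0.151 and 12.2 kb, against 5.63 kb over all intervals, with quartiles of 0.145 and 23.6 kb. The exact interval of the members' median, 0.183 to 10.8 kb, includes the value over all intervals. The median was 0.291 kb with 1 interval per 10 kb locus (5.22 kb over all), 0.253 kb by gene (3.37 kb over all) and 5.12 kb to the outer 5′ end of the gene (13.7 kb over all). By class, both helicase genes, both RNA polymerase factors and 6 of 8 ribonucleoprotein genes had a promoter interval. Splicing factors and other RNA-binding genes had one in 3 of 7 genes each. The classes rest on words of the gene description. Rbpms, for example, is in the splicing class through the words multiple splicing.

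The assigned start was not always the outermost start of the gene. Of the 17 promoter intervals, 12 lay within 1 kb of the outer 5′ end of the gene in the RefSeq table, 70.6% (44.0 to 89.7), against 73.8% of the 630 promoter intervals of the list that could be placed in this way. The exceptions were Dhx32, Hnrnpl, Tarbp2, Hnrnpul1 and 1 of the Cirbp intervals. The Dhx32 interval lay at a start 51.9 kb inside the gene. The Hnrnpl interval lay at the start of a 1.03 kb transcript that begins 12.7 kb inside the gene. At Tarbp2, Cirbp and Hnrnpul1 the internal starts lay 2.12, 1.90 and 1.51 kb from the outer end.

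**Figure D2:**
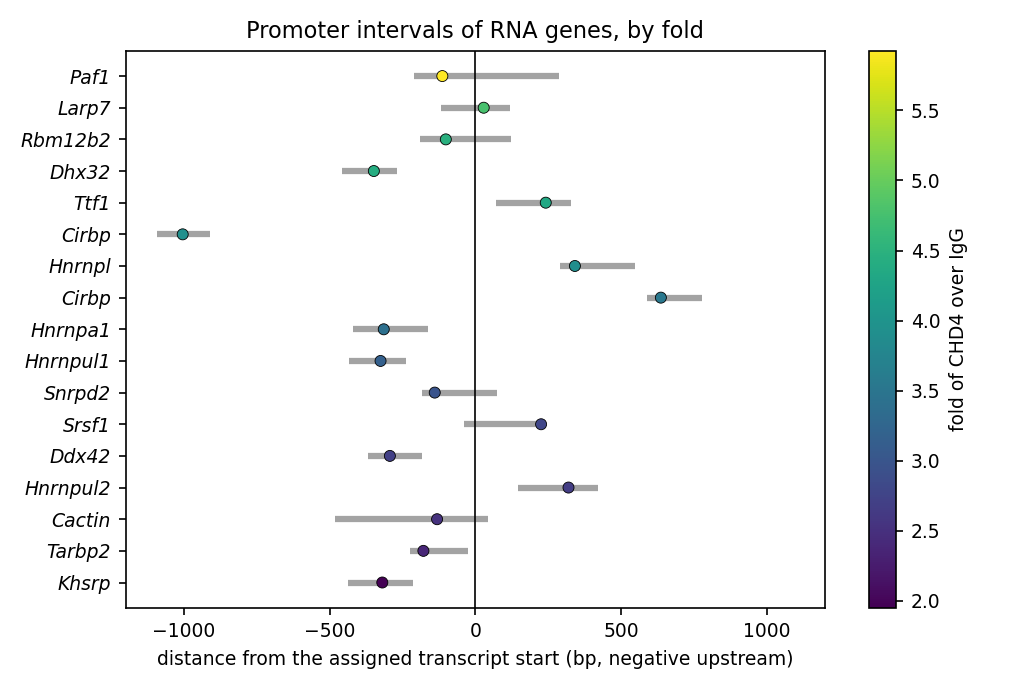
The 17 promoter intervals of RNA genes, from highest fold at the top to lowest, drawn against distance from the assigned transcript start (x axis, bp, negative upstream); grey bars are intervals, points are the summits of highest fold, and colour is fold. Of the 17, 6 contained the start, 7 lay upstream and 4 downstream of it.

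Several of these promoter intervals lay near the start of another gene. At 6 of the 17 promoter intervals the RefSeq start of another gene lay within 1 kb of the interval, in each case on the opposite strand. Genes without a RefSeq promoter sequence, such as Rbm12b2 and Hnrnpul2, could not be counted as the other gene. That is 35.3% (14.2 to 61.7), against 19.6% of the 618 promoter intervals of the list on chromosomes in the promoter table. The exact interval includes the value over the list. Paf1 faced Med29, which encodes a subunit of the Mediator complex, with the Med29 start 51 bp from the interval. Hnrnpa1 faced Cbx5, which encodes the heterochromatin protein HP1 alpha, at 160 bp. The other partners were Zgrf1 beside Larp7, Ccdc47 beside Ddx42 (190 bp), Ttc9c beside Hnrnpul2 (254 bp) and Map3k12, a kinase gene, beside Tarbp2 (965 bp). At Ddx42, Hnrnpa1 and Tarbp2 the interval lay between both RefSeq starts, 183, 126 and 24 bp from that of the named gene. For such intervals the gene named in the list is 1 of 2 candidates, and the data do not separate them.

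Signal strength is given by the authors' fold of CHD4 over IgG at the summit and by the −log10 q of their peak caller. Only 1 list, with no value per sample, was available. No error between replicates can therefore be given, and no difference between groups of intervals was tested. The median fold was 4.27 in the members (quartiles 3.22 and 5.88) and 4.76 over all intervals. The median −log10 q was 2.85 in the members and 2.90 over all intervals. In 28 of the 34 members q was under 0.01, or 82.4%, against 77.3% of all intervals. A member summit held a median of 31.5 CHD4 fragments (range 17 to 116), recovered from fold and p, over a median IgG expectation of 2.11 fragments. Over all intervals the medians were 27 fragments and 1.31. Here and below CHD4 fragments are unscaled, whereas each IgG expectation, or expected number, is at the lower depth of IgG. The fold multiplies the CHD4 fragments by a scale of 0.429 and adds 1 to both numbers. Dividing the printed fragments by the expectation therefore overstates the fold.

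Within the RNA genes, promoter intervals had more fragments and lower folds than the rest. Their median was 56 CHD4 fragments over an IgG expectation of 4.80, with a fold of 3.40. The 17 intervals away from promoters had a median of 28 fragments over an expectation of 1, with a fold of 5.74. Over the whole list the corresponding medians at promoters were 34 fragments, an expectation of 2.40 and a fold of 4.32. Elsewhere they were 25 fragments, an expectation of 1 and a fold of 4.98. Of the 17 promoter intervals 2, Paf1 and Larp7, had a fold above the list's median. That is 11.8% (1.46 to 36.4), against 34.2% of all promoter intervals. Such a fold was found in 11 of the 17 others, 64.7% (38.3 to 85.8), against 58.1% of all intervals away from promoters. Both exact intervals include the value over the list. The median IgG expectation was higher where the median fold was lower. Its part in the difference between promoter intervals and the rest was not tested.

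**Figure D3:**
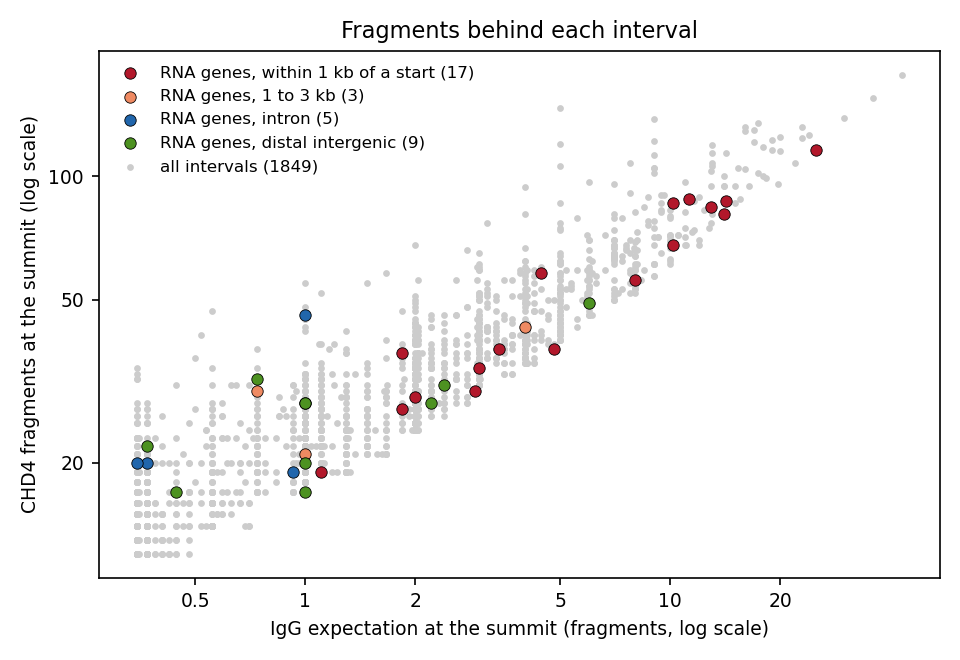
Unscaled CHD4 fragments (y axis, log scale) against the expectation at IgG depth (x axis, fragments, log scale) at the summit of highest fold of each interval. Coloured points are the 34 intervals of RNA genes by location and grey points are all 1849 intervals. Promoter members reach from 1.11 to 25 on the x axis, while the members in introns lie at or below 1.

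The helicases had 1 interval each, both at promoters. Ddx42, a DEAD-box helicase associated with the U2 snRNP, had an interval 0.183 kb upstream of its start (chromosome 11, 106216557 to 106216743). It held 68 unscaled fragments (52.8 to 86.2, exact Poisson) with an expectation of 10.2 at IgG depth, a fold of 2.70. Dhx32, a DEAH-box family member, had 1 at chromosome 7, 133731168 to 133731359, where 27 fragments stood over 1.85, a fold of 4.42. Both had q values under 0.01, with −log10 q of 2.52 and 2.30.

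Among the splicing factors, Mbnl2 and Rbpms had several intervals each and none within 1 kb of an assigned start; 2 of the Mbnl2 intervals were in the authors' classes of promoter at 1 to 3 kb. Mbnl2, a muscleblind protein that regulates alternative exons, had 3 intervals across 15.5 kb of its gene, which also lie within the long non-coding RNA gene Gm52122. The strongest (chromosome 14, 120299780 to 120300164) lay 2.11 kb downstream of an assigned start. It had 30 fragments with an IgG expectation of 0.738, a fold of 7.97. The others lay 1.53 kb downstream and 4.49 kb upstream of their assigned starts, with 21 and 19 fragments (120307989 to 120308274 and 120292752 to 120293187). The −log10 q was 6.87 at the strongest, and 2.87 and 2.31 at these. The assigned starts lay 22.0 or 30.8 kb inside the gene, so none of the 3 was near its outer 5′ end.

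Rbpms, an RNA-binding protein that regulates splicing in smooth muscle, had 2 intervals, 1 in an intron (chromosome 8, 33902607 to 33902941) and 1 upstream of the gene within the long non-coding RNA gene Gm33588 (33970077 to 33970387). Each held 28 fragments against an expected 1, a fold of 6.50 and a −log10 q of 5.52. The highest folds of Mbnl2 and Rbpms thus rested on 30 and 28 fragments.

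The other splicing factors described had 1 interval each. Sf3a3, a subunit of the U2 snRNP, had an interval of 2 summits 5.39 kb upstream of its start with a fold of 4.20, and this interval lay 0.215 kb beyond the boundary of the neighbouring gene Fhl3. Srsf1, the founding SR protein, had an interval over its start with 56 fragments against an expected 8, a fold of 2.78. Cactin, a spliceosome factor, had 1 over its start with 2.52 from 87 fragments over 14.2. Khsrp, which controls splicing and decay of AU-rich transcripts, had an interval 0.212 kb upstream with a fold of 1.95 from 116 fragments over 25. Khsrp had both the highest fragment number and the lowest fold among the members, and ranked 1847 of 1849 in fold.

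Ribonucleoprotein genes had the largest number of promoter intervals, 6 of 10. That is 60% (26.2 to 87.8), against 34.1% of all intervals, a value inside the exact interval. By share the helicase and RNA polymerase classes were higher, with 2 of 2 each. Hnrnpa1, which encodes an abundant hnRNP that opposes SR proteins at splice sites, had an interval 0.161 kb upstream (chromosome 15, 103240012 to 103240271), where 86 fragments stood over 10.2 expected from IgG, a fold of 3.40. Hnrnpul1 and Hnrnpul2, a pair of related hnRNP U-like genes, had folds of 3.16 and 2.66 from 88 and 84 fragments. Hnrnpl, a regulator that binds CA-rich RNA, had a fold of 3.89 from 34. Despite low folds the −log10 q of Hnrnpa1 was 5.52 and that of Hnrnpul1 was 4.96, both above the list's upper quartile of 4.61.

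Larp7, which binds and stabilises the 7SK RNA that restrains transcription elongation, had 58 fragments against an expected 4.43, a fold of 4.76, with the summit 29 bp downstream of the assigned start (chromosome 3, 127553079 to 127553313). Its −log10 q of 6.11 was the highest among the promoter members. Snrpd2, an Sm protein of the core of spliceosomal snRNPs, had a fold of 2.98 from 38 fragments, and its −log10 q of 1.31 was close to the limit of the list. Hnrnpa3, an hnRNP of the same family as Hnrnpa1, had no promoter interval but 2 upstream of the gene. The nearer (chromosome 2, 75642479 to 75643652) was 1174 bp wide with 3 summits of fold 4.34, 4.48 and 8.47, and lay 15.6 kb upstream. Its strongest summit held 32 fragments against an expected 0.738, and its −log10 q was 7.98. The farther (75612905 to 75613338), at 45.9 kb, held 17 fragments, a fold of 5.74 with a −log10 q of 3.39, and lay within the gene Gm50595, with the RefSeq start of Gm39853 at 54 bp.

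The remaining 2 ribonucleoprotein intervals were named for B230303A05Rik, described as a U1 snRNP pseudogene. They lay 716 and 738 kb from its start, the second being the largest distance of the list, and 118 and 95.8 kb from the nearest protein-coding gene, Sugct. The nearer (chromosome 13, 16739568 to 16739798) held 17 fragments, a fold of 4.14, with a −log10 q of 1.35. The farther (16761132 to 16761683) held 22 fragments, a fold of 7.62, with a −log10 q of 6.23. At such distances the name of the gene says only that no other start was nearer in the authors' annotation.

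Both RNA polymerase factors had promoter intervals. Paf1, the namesake subunit of the complex that travels with elongating RNA polymerase II, had the highest fold of the promoter members, 5.93, with 37 fragments (26.1 to 51.0) against an expected 1.85 (chromosome 7, 28392741 to 28393239). Its interval held 2 summits, 113 bp upstream and 161 bp downstream of the start, with folds of 5.93 and 3.73, and its −log10 q was 5.21. Ttf1, which ends transcription of ribosomal RNA genes by RNA polymerase I, had an interval 0.071 kb downstream of its start (chromosome 2, 29060337 to 29060594) that held 19 fragments, a fold of 4.34, with a −log10 q of 1.83.

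The strongest member of all was Msi2, which encodes Musashi-2, a translational regulator known from stem cells. Its interval (chromosome 11, 88495755 to 88496299) lay in intron 6 of 13, 93.8 kb downstream of the assigned start and 222 kb from the outer 5′ end of the gene. The fold of 10.4 came from 46 fragments (33.7 to 61.4) over an expectation of 1. It ranked 12 in fold and 24 in −log10 q, at 13.1, among the 1849 intervals. Rbms1, an RNA-binding protein of the MYC-associated single-strand binding family, had an intronic interval of fold 6.99, with 20 fragments against 0.369 (chromosome 2, 60901716 to 60901906), and a −log10 q of 5.03. The third highest of the RNA-binding class was Mex3b, a KH-domain protein with a ubiquitin ligase domain, at 27.1 kb (chromosome 7, 82894458 to 82894916), where 20 fragments gave a fold of 4.79 and a −log10 q of 2.07.

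Cirbp, the cold-inducible RNA-binding protein, had the most intervals of any member, 4 within 7.80 kb. Their folds were 3.14, 3.89, 3.93 and 3.54 in order along chromosome 10, from 49, 43, 38 and 30 fragments. They spanned 80160870 to 80161221, 80164018 to 80164239, 80164892 to 80165075 and 80168477 to 80168665. The first 3 lay 4.76, 1.75 and 0.910 kb upstream of the assigned start, and the fourth 0.591 kb downstream of an internal one. The first lay 2.50 kb from the boundary of Midn, the nearest protein-coding gene. The first 3 had −log10 q of 2.47, 3.12 and 2.85, and the fourth 1.31, the lowest value in the list. All 4 folds were below the median of the list.

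The other RNA-binding members were at moderate or low folds. Rbm12b2, an RNA recognition motif gene, had an interval over its start with a fold of 4.48 from 29 fragments, and this interval also overlapped Tmem67. Tarbp2, the double-stranded RNA-binding partner of Dicer, had a promoter interval 0.024 kb upstream of an internal start with 81 fragments against an expected 14, a fold of 2.38. Tarbp1 had an interval 48.1 kb upstream with a fold of 4.04 from 28. Among all member genes, 5 had more than 1 interval (Cirbp, Mbnl2, Rbpms, Hnrnpa3 and B230303A05Rik), or 19.2%, against 15.3% of all named genes.

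**Figure D4:**
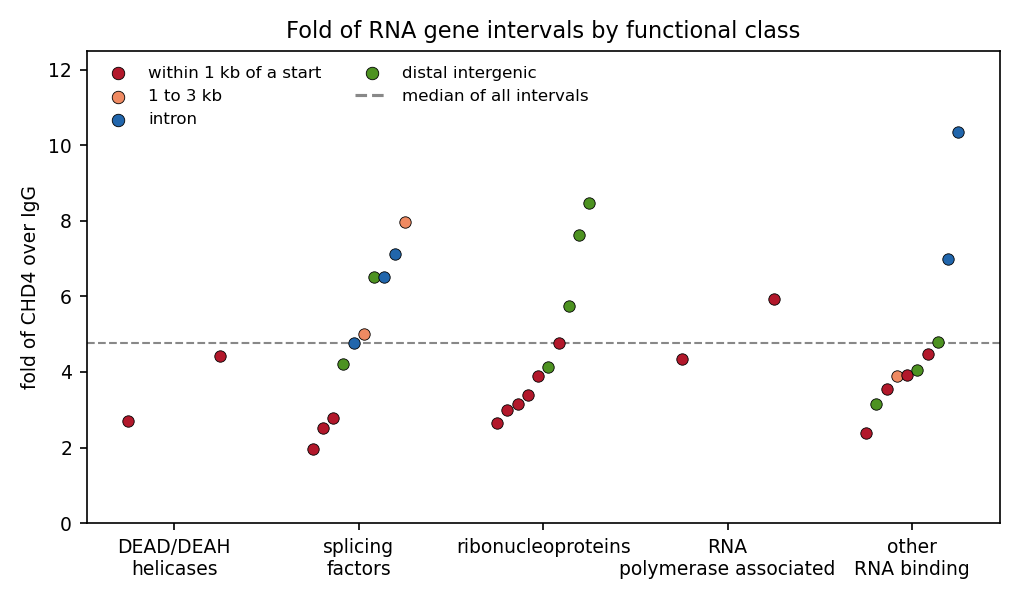
Fold of CHD4 over IgG (y axis) of each of the 34 intervals of RNA genes by functional class (x axis), coloured by location; the dashed line is the median of all 1849 intervals, 4.76. Msi2 reaches 10.4, and 15 of the 17 promoter intervals lie below the line. Of all 631 promoter intervals in the list, 34.2% lie above the line.

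The keywords miss RNA genes with other descriptions, so families were also counted by gene symbol. In 10 families with 354 protein-coding genes, 22 had an interval, 6.21% (3.94 to 9.26), against 6.1% of all 21775 protein-coding genes. A promoter interval was present for 16 of them, 4.52%, against 2.56% of all protein-coding genes. No exact interval was computed for this promoter share, and the difference was not tested. Of these 22 genes 11 were members by keyword and 11 were not. The hnRNP family had an interval in 6 of 30 genes, 20% (7.71 to 38.6): the 5 members above and Syncrip, 2.1 kb upstream with a fold of 4.43. DEAD-box helicases had 1 of 40 and DEAH-box helicases 1 of 17, SR factors 1 of 20, and a list of spliceosomal snRNP proteins, which does not hold Cactin, 3 of 62, with Lsm8, a protein of the U6 snRNA, added by symbol at its start with a fold of 4.43. A list of selected splice regulators and numbered Rbm genes, which does not hold Rbm12b2, Khsrp or Rbpms, had 1 of 69 (1.45%, 0.0367 to 7.81), which was Mbnl2.

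RNA decay factors had an interval in 6 of 39 genes, 15.4% (5.86 to 30.5), and 5 of these were at promoters. The exact interval includes the 6.1% of all protein-coding genes. Cnot1, the scaffold of the CCR4-NOT deadenylase, had the highest fold of them, 6.33, with 56 fragments against an expected 2.95. Its partners Cnot2 and Cnot3 had 4.36 from 18 and 2.35 from 88 fragments. Exosc3, a subunit of the RNA exosome, had 5.43 from 15, and Smg9, a factor of nonsense-mediated decay, 4.47 from 81 with a −log10 q of 8.24. Dcp2, the decapping enzyme, was named for an intronic interval at 92.4 kb.

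Among RNA polymerase subunits Polr2b, the second largest subunit of RNA polymerase II, was the 1 of 29 with an interval, at 0.030 kb with a fold of 3.61 from 65 fragments. Fip1l1 was the 1 of 27 cleavage and polyadenylation factors, with 4.73 at its start. Of 25 germ cell RNA regulators 1 was named, Meioc, at 19.4 kb. These shares are 3.45% (0.0873 to 17.8), 3.70% (0.0937 to 19.0) and 4% (0.101 to 20.4). Each exact interval includes the 6.1% of all protein-coding genes.

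**Figure D5:**
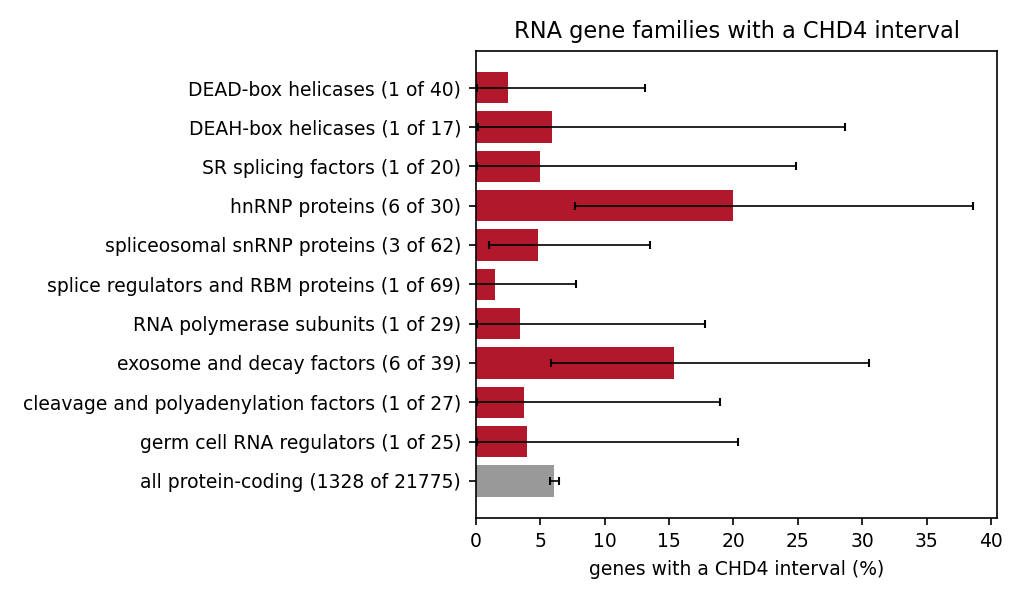
Share of genes with a CHD4 interval (x axis, %) in 10 RNA gene families and over all protein-coding genes (y axis, with counts); error bars are exact 95% binomial intervals. The hnRNP proteins stand at 20% and the RNA decay factors at 15.4%, against 6.1% of all protein-coding genes.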

How the data were processed

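CHD4 and IgG CUT&Tag samples (2 each) are represented by 1 deposited peak list. Per the submitters' processing notes, MACS2 2.1.2, Bowtie2 2.2.5 and Trim Galore 0.5.0 were the tools and mm10 the build; the sources used here do not say how replicates were combined or duplicate reads treated. The deposited table holds a fold ratio (FC) of CHD4 over IgG, its log2, a score equal to 10 times −log10 q without decimals, and, by column order, −log10 p and −log10 q of each peak, all the authors' own values. The first peak stands in place of some column headers and was not analysed here. Coordinates are mm10, counted from 1.

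Each interval was represented by the summit with its highest fold. CHD4 fragments and the IgG expectation were solved from the authors' fold and p, taking fold as (scaled fragments + 1) over (expectation + 1) and p as a Poisson tail; a scale of 0.429 gave whole fragment numbers, within 0.002, at all 2066 summits, a CHD4 to IgG depth ratio of 2.33. The recovery was tested on simulated data. Poisson and binomial intervals (exact, 95%; Python 3.11.15, scipy 1.17.1) cover counting error only. Genes, their boundaries and promoter windows came from RefSeq tables of GRCm38.p6, matched by gene identifier for all 26 genes; 25 were protein-coding. Protein-coding genes with starts below 3 Mb were not counted, except on Y.

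The members and gene families were chosen with earlier results of these data known, so shares and medians are set beside those of all intervals with no test. Functional classes followed the keywords, in the order helicase, splicing, ribonucleoprotein, RNA polymerase, other RNA binding. All members may be named; full values are given for the 3 intervals of highest fold in each class, the 5 of smallest q, genes with 2 or more intervals, and the intervals nearest to and farthest from a start. The values of 1 member gene, which is kept in all counts, are not reported here. Alternatives were a stricter q, intervals of fold at or above the list's median, summits as units, 1 interval per 10 kb locus, other distance definitions and narrower keywords.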

Additional observations from a re-analysis of the deposited data

How the results depend on the processing

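Of 34 alternative values, 29 stayed within the exact interval or 1.5-fold range of the value reported and 5 did not. For the distance to the start that interval is wide, and the median ranged from 0.253 to 11.8 kb. Using intervals with a fold at or above the list's median, the promoter share was 14.3% (14 members), the median distance to the start 11.8 kb, the median fold 6.50 and the number of family genes with an interval 5; this setting removes most promoter intervals, whose folds are lower. A ratio of scaled fragments to IgG expectation without the added 1 gave a median of 5.91, against 7.72 over all intervals. The promoter share ranged from 14.3% to 61.5% over 11 settings and was above that of all intervals in 10 of them. These 11 include the reported value, and the deposited distance within 1 kb gave the same 50%. The settings count largely the same intervals, so they are not independent of each other. Under distance to the outer 5′ end of the gene, chosen after seeing the data, it was 35.3% against 25.9% over all intervals. The settings by gene, without the pseudogene and by plain ratio were likewise added once the data had been seen. No paired analysis was possible because the deposited list has no value per sample. At a median of 31.5 fragments per member summit, small differences in fold are within counting error.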
